A study of Homo sapiens with 6 samples.

Results

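The alcohol dehydrogenase (ADH) family was followed in HepG2 cells given a leaf extract. It comprises ADH1A, ADH1B, ADH1C, ADH4, ADH5, ADH6 and ADH7, and each of the 7 genes had 1 transcript cluster among the 19291 clusters (18372 genes) that carried a single gene symbol. The leaf-treated group was HepG2 cells, an established human hepatoma line, exposed for 24 h to 50 µg/ml of a water extract of Barringtonia racemosa leaf, and the untreated group was HepG2 cells without the extract. Each group had 3 arrays of the Affymetrix Human Gene 1.0 ST type, and the replicates were labelled biological. The labels name no vehicle for the untreated cells, and the protocol text of those samples repeats that of the leaf-treated ones. The study question was which transcripts differ after the extract. Members were taken by symbol, and the only measured value the choice used was the removal of rows at 0 on every array, which removed 0 of the 7 (the lowest value of any member was 2.46). The family as a whole was selected on the lower log2 value of ADH4 in leaf-treated cells, which was already known, so the ADH4 values are given as a description with no test.

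ADHs are zinc enzymes that use NAD+ to oxidise alcohols to aldehydes and run in the other direction with NADH. ADH1A, ADH1B and ADH1C encode the class I subunits that carry much of the ethanol oxidation of adult liver. ADH4 encodes the class II enzyme, which is found mainly in liver and acts on ethanol, retinol and longer or aromatic alcohols. ADH5 encodes the class III enzyme, present in nearly all cells, which oxidises the glutathione adduct of formaldehyde and reduces S-nitrosoglutathione. ADH6 encodes a class V protein described from liver transcripts, and ADH7 encodes the class IV enzyme of stomach and oesophagus, which acts on retinol. The genes lie next to each other on chromosome 4, in the order ADH5, ADH4, ADH6, ADH1A, ADH1B, ADH1C and ADH7.

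The bases before the start sites of the 3 members whose clusters were above the background of the arrays are shown, because ADH4 and ADH6 were lower in leaf-treated cells and ADH5 was not clearly so. They are RefSeq sequences of GRCh38.p14, 250 bases each, on the minus strand and written 5′ to 3′ towards the start: chr4:99144298-99144547 for ADH4, chr4:99219247-99219496 for ADH6 and chr4:99088789-99089038 for ADH5. Capitals mark only AAGTCCA in ADH4 and ADH6, which is the core of the motif of hepatocyte nuclear factor 4, and CCGCCC in ADH5, which is the GC box GGGCGG on the other strand. Other motifs searched are left in lower case, among them CCAAT and TATAAA in ADH4 and TTNNGNAA in both ADH4 and ADH5. They are given below. A part of any motif in the results was not tested.
ADH4: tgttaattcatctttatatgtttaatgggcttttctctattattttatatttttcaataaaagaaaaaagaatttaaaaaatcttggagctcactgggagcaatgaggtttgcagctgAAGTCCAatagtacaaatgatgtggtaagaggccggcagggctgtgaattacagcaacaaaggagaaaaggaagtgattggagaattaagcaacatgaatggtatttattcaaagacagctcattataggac
ADH6: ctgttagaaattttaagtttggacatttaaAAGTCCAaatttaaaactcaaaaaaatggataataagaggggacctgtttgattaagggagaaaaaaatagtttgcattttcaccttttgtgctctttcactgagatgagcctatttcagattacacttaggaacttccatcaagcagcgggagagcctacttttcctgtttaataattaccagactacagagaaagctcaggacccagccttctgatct
ADH5: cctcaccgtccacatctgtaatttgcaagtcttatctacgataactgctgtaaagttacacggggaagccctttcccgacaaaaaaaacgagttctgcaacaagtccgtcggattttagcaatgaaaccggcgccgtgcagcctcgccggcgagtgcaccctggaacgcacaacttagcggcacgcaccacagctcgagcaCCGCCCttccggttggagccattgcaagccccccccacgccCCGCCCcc
The stretches of ADH4 and ADH6 had GC contents of 34.0% and 36.4%, and that of ADH5 had 58%, equal to the median of all promoters.

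In all, 9 motifs were searched on both strands, in windows of 250 bases before and 50 bases after the start, and windows were found for 7 of 7 members (ADH7 had 2). AAGTCCA was present in ADH4, at bases -132 to -126, and in ADH6, at bases -220 to -214, and in 3.39% of 35116 windows of the same length. It was not found in the other 5 members. GGGCGG was present in ADH5 (45.0% of windows) and in no other member. CACGTG, the E-box, occurred in ADH1B and ADH1C (7.26% of windows), and TATAAA in ADH4 and ADH7 on the reverse strand (11.5% of windows). CCAAT occurred in ADH1A, ADH1B, ADH1C and ADH4 (34.6% of windows), and 1 of its matches in ADH4 overlapped AAGTCCA. TTNNGNAA, a loose form of the C/EBP motif, occurred in ADH1B, ADH4, ADH5 and ADH7 (36.8% of windows). TTATGNAA and TGACNNNGC, searched as forms of the PAR bZIP and antioxidant response motifs, and a form of the HNF1 motif had a match in 0 of the 7 members and in 3.30%, 13.3% and 0.322% of windows, in that order. These matches are a description of letters and not of binding. The 3 class I windows were 81.3% to 82.2% identical to each other in a global alignment, against 39.4% to 50.3% for the other 18 pairs of members.

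The arrays correlated with each other at r of 0.983 to 0.994 over all rows above 0, and the values were log2 expression values. Leaf-treated array 2 was the leaf-treated array most like the untreated ones. Its mean correlation was 0.986 with the other leaf-treated arrays and 0.992 with the untreated arrays, so it lay closer to the untreated arrays than to its own group. Leaf-treated arrays 1 and 3 had 0.987 and 0.986 with the other leaf-treated arrays, and 0.985 each with the untreated arrays. Array 2 was thus no further from its own group than array 3. The median over rows above 0 was 3.51, 3.41 and 3.53 on leaf-treated arrays 1, 2 and 3, and 3.37 to 3.42 on the untreated arrays. The fold changes of the members above background and the counts of each gene list are therefore given with and without leaf-treated array 2. Liver markers were high in both groups, with means over 15 clusters of 9.58 to 9.75 on leaf-treated arrays and 9.71 to 9.78 on untreated arrays, while 17 clusters of genes of other cell types, 10 of them above background, had means of 3.48 to 3.68 on leaf-treated arrays and 3.49 to 3.53 on untreated arrays. The median log2 fold change of the liver markers was -0.0900, that of the genes of other cell types was 0.0741, and 0 clusters of either list passed the thresholds of the series' design. With leaf-treated array 2 left out, these medians were -0.13 and 0.13. At an unadjusted p under 0.05, 4 of the 15 liver marker clusters were then lower, beside 11.7% of all clusters, and 5 of the 17 clusters of other cell types were higher, beside 1598 of 19291. Both APOA1 clusters, which had identical values on every array, are among these 4 and among the 6 liver marker clusters described next. In each list 6 clusters then had groups that did not overlap in that direction, beside 19.7% of all clusters lower and 3284 of 19291 higher. Their part in the results was not tested. In such bulk samples fewer cells that express a gene and less of its RNA per cell cannot be told apart.

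The files hold no detection calls. As a stand-in, a cluster was called above background when its mean over the 6 arrays exceeded 3.28, the 95th percentile of the means of 357 olfactory receptor clusters. By this measure 3 of the 7 members were above background (ADH4, ADH5 and ADH6) and 4 were not (ADH1A, ADH1B, ADH1C and ADH7). The level of one cluster cannot be set against that of another on these arrays, so each gene is compared between groups only.

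**Figure D1:**
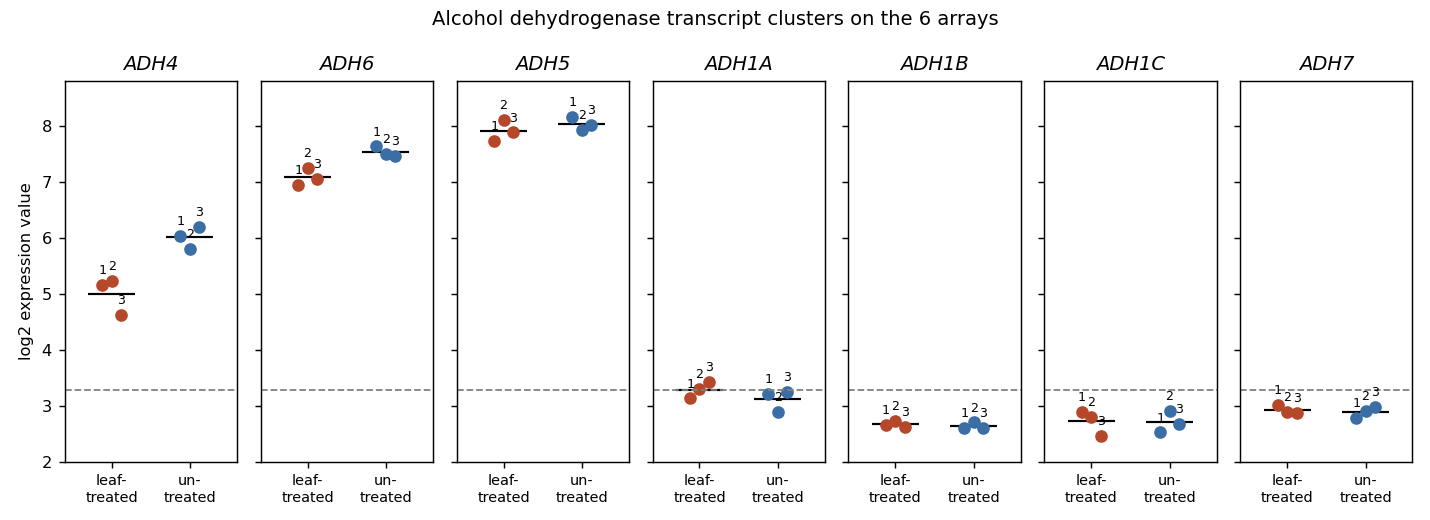
Log2 expression value of each ADH cluster (y axis) on the 3 leaf-treated arrays (left, red) and the 3 untreated arrays (right, blue) of each panel, with array numbers beside the points and the group mean as a bar; the dashed line is the background value of 3.28. The groups are apart for ADH4 and ADH6, overlap for ADH5, and lie near or below the dashed line for the other 4 genes.

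ADH4 was lower in every leaf-treated array than in every untreated array. Its log2 values were 5.16, 5.23 and 4.62 on leaf-treated arrays 1 to 3, against 6.03, 5.80 and 6.19 on untreated arrays 1 to 3. The lowest untreated value was 0.58 above the highest leaf-treated value, and leaf-treated array 3 was the lowest of all. The means were 5.00 ± 0.33 in leaf-treated cells and 6.01 ± 0.20 in untreated cells (SD, n = 3 each). The log2 fold change was -1.01 ± 0.18 (SE), a signal 50.3% lower in leaf-treated cells. Without leaf-treated array 2 it was -1.12, and without leaf-treated array 3 it was -0.82. ADH4 was the only member past the thresholds of the series' design (1.5 fold or more and p under 0.05 before adjustment), which 0.570% of all clusters passed in the lower direction and 0.270% in the higher. As this gene prompted the choice of the family, nothing is read from that count.

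ADH6 was also lower, by less. Its log2 values were 6.95, 7.25 and 7.05 on leaf-treated arrays 1 to 3, against 7.63, 7.49 and 7.46 on untreated arrays 1 to 3. The groups did not overlap, with a gap of 0.21 between the highest leaf-treated array, array 2, and the lowest untreated array. The means were 7.08 ± 0.16 in leaf-treated cells and 7.53 ± 0.09 in untreated cells (SD, n = 3 each). The log2 fold change was -0.44 ± 0.10 (SE, 95% interval -0.68 to -0.21), or 26.5% lower in leaf-treated cells. It did not pass the adjustment over all clusters (adjusted p = 0.38 from limma), and at 1.36 fold it was under the fold threshold of the series. Without leaf-treated array 2 the log2 fold change was -0.53 (adjusted p = 0.089 from limma).

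ADH5 did not separate the groups. Its log2 values were 7.73, 8.11 and 7.88 on leaf-treated arrays 1 to 3, against 8.16, 7.92 and 8.02 on untreated arrays 1 to 3. Leaf-treated array 2 lay within the untreated range, and the other leaf-treated arrays lay below it. The means were 7.91 ± 0.19 in leaf-treated cells and 8.03 ± 0.12 in untreated cells (SD, n = 3 each). The log2 fold change was -0.13 ± 0.12 (SE, limma adjusted p = 0.69), with a 95% interval of -0.41 to 0.15 that includes both no change and a decrease close to that of ADH6. Without leaf-treated array 2 the value was -0.23 (adjusted p = 0.28 from limma), and the groups did not overlap.

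The class I genes gave low values in both groups. ADH1A had log2 values of 3.13, 3.31 and 3.42 on leaf-treated arrays and 3.22, 2.89 and 3.24 on untreated arrays. Its mean in leaf-treated cells of 3.29 was close to the background value, and its log2 fold change of 0.17 ± 0.13 (SE) came with groups that overlapped. ADH1B had values of 2.66, 2.73 and 2.62 on leaf-treated arrays and 2.61, 2.70 and 2.61 on untreated arrays, all below the background value. ADH1C had values of 2.90, 2.80 and 2.46 on leaf-treated arrays and 2.52, 2.91 and 2.67 on untreated arrays. The log2 fold changes of ADH1B and ADH1C were 0.0312 and 0.0192, and both pairs of groups overlapped. The 3 genes are close paralogues, and how far their probes share targets is not given in the sources used here. ADH7 had values of 3.01, 2.89 and 2.88 on leaf-treated arrays and 2.78, 2.90 and 2.98 on untreated arrays, with a log2 fold change of 0.0388 and groups that overlapped. For these 4 genes a change in a transcript below background would not be detectable on these arrays.

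Across the family, 0 of 7 clusters were called at an adjusted p under 0.05 from limma, where 0.00518% of all clusters were (1 of 19291), and the adjusted p of the members other than ADH4 ranged from 0.38 to 0.97. At an unadjusted p under 0.05, 2 of 7 were lower and 0 were higher, beside 5.90% of all clusters lower and 3.87% higher. The groups did not overlap, with leaf-treated lower, in 2 of 7 clusters, beside 7.41% of all clusters, and with leaf-treated higher in 0 of 7, beside 6.14%. Without leaf-treated array 2 the unadjusted count was again 2 of 7, beside 11.7% of all clusters, and the count without overlap was 3 of 7, beside 19.7%. The median log2 fold change of the 7 members was 0.0192, beside 0.0108 for all clusters, since 4 members were at background. ADH4, on which the family was selected, is 1 of the lower clusters in each of these counts. With 7 members, these counts describe the genes named above and give no result on the family as a whole.

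The members above background were then set against each other within each array, a comparison chosen after their values had been seen, in which a shift common to all clusters of an array cancels. The difference between ADH6 and ADH5 was -0.79, -0.86 and -0.83 on leaf-treated arrays 1 to 3, against -0.53, -0.43 and -0.56 on untreated arrays 1 to 3. The values were tight in both groups and did not overlap, also for leaf-treated array 2, on which ADH5 and ADH6 were both at their highest for the group. The mean difference was -0.82 ± 0.04 in leaf-treated cells and -0.51 ± 0.07 in untreated cells (SD, n = 3 each). This change of -0.32 gave p = 0.10 in a two-sided exact permutation test, the smallest value that 3 arrays against 3 allow. Any pair whose groups do not overlap gives this value. As the pair was chosen with its values known, nothing is read from the p. The comparison does not show that ADH5 did not change.

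ADH4 was compared in the same way, as a description. The difference between ADH4 and ADH5 was -2.57, -2.89 and -3.26 on leaf-treated arrays and -2.12, -2.12 and -1.83 on untreated arrays. The difference between ADH4 and ADH6 was -1.79, -2.03 and -2.43 on leaf-treated arrays and -1.60, -1.69 and -1.27 on untreated arrays. Neither overlapped between groups, and leaf-treated array 3 had the largest gap in both. The mean difference between ADH4 and ADH6 was lower by 0.56 in leaf-treated cells, so the signal of ADH4 was lower by more than that of ADH6. As the family was selected on ADH4, this order of the genes is a description from which nothing is read.

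**Figure D2:**
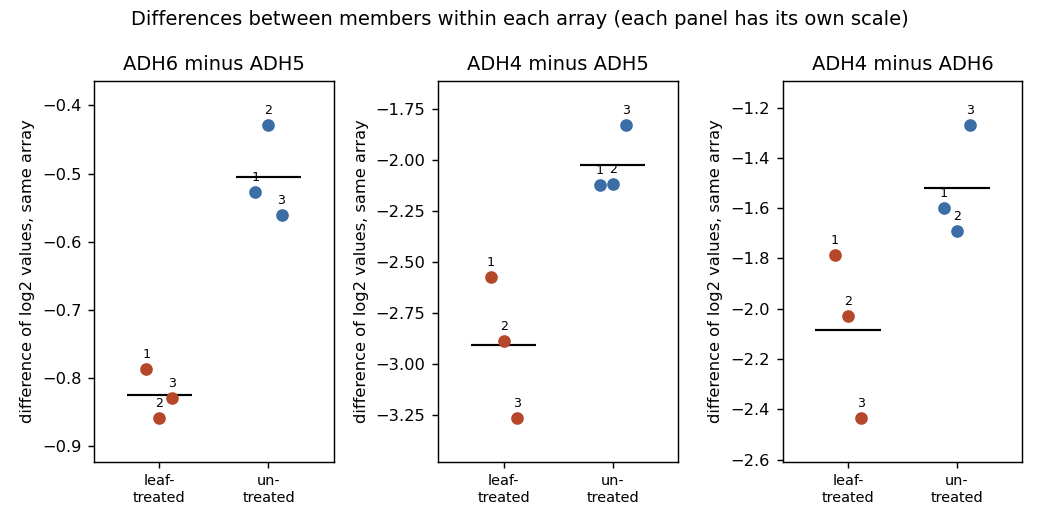
Difference of the log2 values of a pair of ADH clusters on the same array (y axis, its own scale in each panel) for leaf-treated arrays (left, red) and untreated arrays (right, blue), with array numbers beside the points and the group mean as a bar. In each panel the leaf-treated arrays are below the untreated arrays, by 0.32 in the mean for ADH6 minus ADH5.

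Genes on either side of the family on chromosome 4 were examined to describe the position of the 2 lower members. Of 9 neighbouring genes measured, 1 was past the thresholds of the series' design, beside 0.570% of all clusters. This was TRMT10A, a tRNA methyltransferase gene beyond ADH7, with log2 values of 3.35, 3.57 and 3.43 on leaf-treated arrays and 4.27, 3.97 and 3.95 on untreated arrays. Its log2 fold change was -0.61 ± 0.11 (SE, limma adjusted p = 0.33). METAP1, an aminopeptidase gene next to ADH5, had a log2 fold change of -0.31 ± 0.16 (SE) with groups that overlapped. MTTP, which encodes the lipid transfer protein of lipoprotein assembly and is expressed in liver, had one of -0.0966 ± 0.14 (SE), also with overlap. Both values moved by over 1.5 times when leaf-treated array 2 was left out. METAP1 was then at -0.48 ± 0.10 (SE, limma adjusted p = 0.10) and MTTP at -0.25 ± 0.09 (SE, limma adjusted p = 0.23), and their groups did not overlap. At an unadjusted p under 0.05, 1 of the 9 neighbours was lower on all arrays (beside 5.90% of all clusters) and 3 were lower without leaf-treated array 2 (beside 11.7%). The median of the 9 neighbours was -0.0601, and -0.0652 without that array. On all arrays the lower values of ADH4 and ADH6 stood between ADH5 on one side and members at background on the other.

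**Figure D3:**
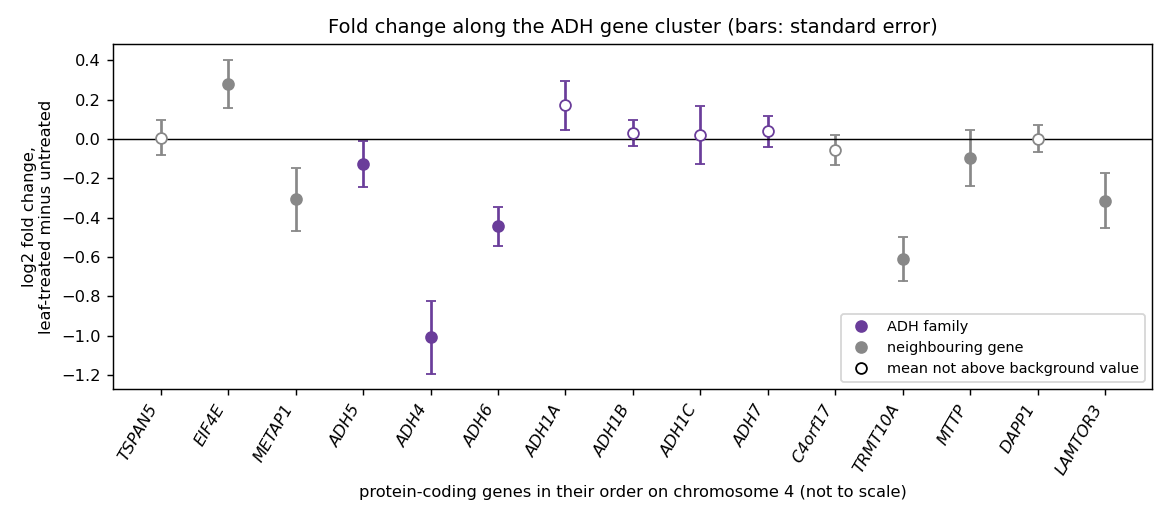
Log2 fold change, leaf-treated minus untreated (y axis), for protein-coding genes in their order on chromosome 4 (x axis, not to scale), with ADH genes in purple, neighbours in grey, open circles for clusters not above background and bars for the standard error. ADH4 at -1.01, TRMT10A at -0.61 and ADH6 at -0.44 are the lowest points.

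Aldehydes made by ADHs are oxidised by aldehyde dehydrogenases (ALDH). All 19 ALDH genes listed were measured, in 21 clusters, and 0 of the 21 passed the thresholds of the series' design in either direction. At an unadjusted p under 0.05, 1 was lower (beside 5.90% of all clusters) and 0 were higher (beside 3.87%). In 3 the groups did not overlap, all lower in leaf-treated cells (beside 7.41%). The cluster lower at that p was that of ALDH1A1, a cytosolic enzyme that oxidises retinal and acetaldehyde. Its log2 values were 10.3, 10.6 and 10.5 on leaf-treated arrays and 10.8, 10.7 and 10.9 on untreated arrays, with a log2 fold change of -0.35 ± 0.10 (SE, limma adjusted p = 0.45). ALDH2, the mitochondrial enzyme that removes most acetaldehyde, had values of 6.28, 6.90 and 6.71 on leaf-treated arrays and 7.16, 6.95 and 6.92 on untreated arrays. Its log2 fold change was -0.38 ± 0.17 (SE, limma adjusted p = 0.51), with leaf-treated array 2 just below the lowest untreated array. The median over the ALDH clusters was -0.0290, beside 0.0108 for all clusters, and without leaf-treated array 2 it was -0.0617. Without that array 2 of the 21 clusters, ALDH1A1 and ALDH2, were lower at an unadjusted p under 0.05 (beside 11.7% of all clusters), with ALDH2 at -0.51 ± 0.15 (SE, limma adjusted p = 0.17). The groups then did not overlap in 7 of the 21 with leaf-treated lower (beside 19.7%) and in 1 with leaf-treated higher (beside 3284 of 19291).

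Ethanol is also oxidised by CYP2E1, a microsomal cytochrome P450, and by catalase. CYP2E1 was not above background, at 2.99, 2.99 and 3.29 on leaf-treated arrays and 3.02, 2.84 and 2.91 on untreated arrays. CAT, which encodes catalase, had values of 7.99, 8.13 and 7.96 on leaf-treated arrays and 8.31, 8.21 and 8.37 on untreated arrays. Its groups did not overlap, and its log2 fold change was -0.26 ± 0.08 (SE, limma adjusted p = 0.47). The acyl-CoA synthetases that use acetate, ACSS1, ACSS2 and ACSS3, had groups that overlapped. Of these 6 clusters, ALDH2 included, 0 passed the thresholds of the series' design and 1, CAT, was lower at an unadjusted p under 0.05, beside 5.90% of all clusters. There were 2, CAT and ALDH2, without leaf-treated array 2, beside 11.7%. ESD encodes S-formylglutathione hydrolase, which acts after ADH5 in the removal of formaldehyde. Its values were 9.15, 9.36 and 9.31 on leaf-treated arrays and 9.59, 9.32 and 9.63 on untreated arrays, and its log2 fold change was -0.24 ± 0.11 (SE, limma adjusted p = 0.51) with groups that overlapped. GSR, glutathione reductase, was the 1 cluster of 5 measured for formaldehyde and S-nitrosoglutathione that was lower at an unadjusted p under 0.05 (beside 5.90% of all clusters), and 0 of the 5 passed the thresholds of the series' design. Its log2 values were 9.61, 9.71 and 9.65 on leaf-treated arrays and 9.85, 9.82 and 9.99 on untreated arrays. On the other 5 arrays, without leaf-treated array 2, 2 of the 5 clusters were lower at an unadjusted p under 0.05 (beside 11.7%), GSR and ALDH2, and 3 had groups that did not overlap, with leaf-treated lower (beside 19.7%).

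**Figure D4:**
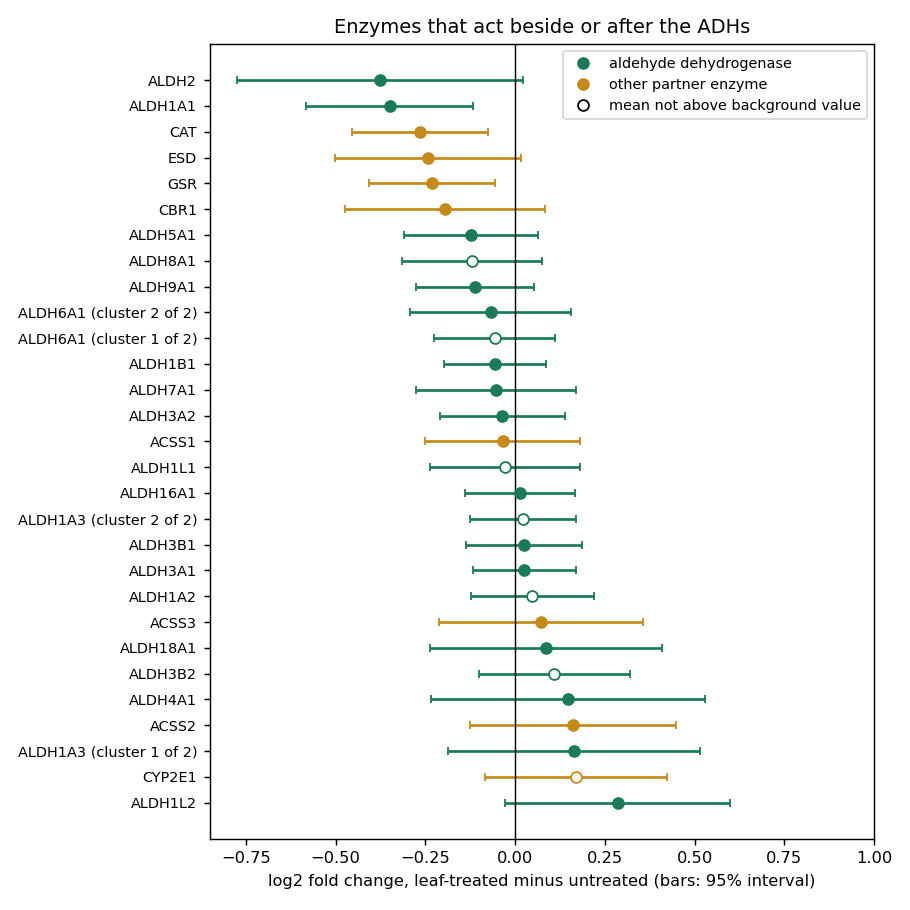
Log2 fold change, leaf-treated minus untreated (x axis), of aldehyde dehydrogenase clusters (green) and other enzymes that act beside or after the ADHs (ochre), with open circles for clusters not above background and bars for the 95% interval, which is not adjusted for the number of clusters. ALDH2 at -0.38 and ALDH1A1 at -0.35 are at the low end, and 0 of the 21 ALDH clusters passed the thresholds of the series' design.

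ADH4 and ADH7 also act on retinol. Of 27 genes listed for retinol, retinal and retinoic acid, 22 were measured in 23 clusters, and 0 passed the thresholds of the series' design. At an unadjusted p under 0.05, 1 was lower, ALDH1A1 (beside 5.90% of all clusters), and 1 was higher, RDH12 (beside 3.87%), a retinal reductase gene not above background, whose mean log2 value was 3.34 in leaf-treated cells and 3.09 in untreated cells. The median over the 23 clusters was 0.0273. It was 0.0316 without leaf-treated array 2, with 2 lower (beside 11.7% of all clusters) and 1 higher (beside 1598 of 19291) at an unadjusted p under 0.05. Of the relatives of the ADHs in the medium-chain dehydrogenase fold, listed with the iron-dependent ADHFE1, 11 genes were measured and 1 passed the thresholds, beside 0.570% of all clusters in the lower direction. This was PTGR1, a reductase of prostaglandins and leukotrienes, with a log2 fold change of -1.07 ± 0.14 (SE, limma adjusted p = 0.21) and groups that did not overlap. At an unadjusted p under 0.05, 1 of the 11 clusters was lower (beside 5.90% of all clusters) and 2 were higher (beside 3.87%). Of the higher ones, TP53I3, a quinone reductase gene of the same fold, had a log2 fold change of 0.30 ± 0.07 (SE, limma adjusted p = 0.38). The other, VAT1L, was not above background and had one of 0.29 ± 0.11 (SE, limma adjusted p = 0.51). The median of these 11 clusters was 0.0106. It was -0.0122 without leaf-treated array 2, and 2 of the 11, PTGR1 and PTGR3, passed the thresholds, both lower, beside 1.67% of all clusters. At an unadjusted p under 0.05, 4 of the 11 were then lower (beside 11.7% of all clusters) and 2 were higher (beside 1598 of 19291).

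The genes whose profile over the 6 arrays was most like that of ADH4 were found from the root mean squared distance between log2 values centred on each gene's own mean. They were ID3, ZNF814, SNORD50A, PUS7 and HPR, at distances of 0.11, 0.16, 0.19, 0.20 and 0.20. Each was lower in leaf-treated cells, with log2 fold changes of -1.005, -0.86, -0.82, -0.71 and -0.75. The mean of ZNF814 was not above background. ADH6 was at a distance of 0.36, the 396th of 19290 other clusters, and ADH5 was at 0.49. The 6 arrays include both groups, so likeness here mostly restates the difference between them and is given with no test.

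The fold changes of the 3 members above background were recomputed under 14 other settings. ADH4 ranged from -1.12 to -0.82, which is a description. ADH6 ranged from -0.53 to -0.32, with an unadjusted p under 0.05 in 14 of 14 settings and an adjusted p of 0.089 to 0.82 from limma or, in 1 setting, plain analysis of variance. ADH5 ranged from -0.23 to -0.00703, and its unadjusted p was under 0.05 in 0 of 14. The values nearest to no change, -0.32 for ADH6 and -0.00703 for ADH5, were both those after quantile normalization.

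**Figure D5:**
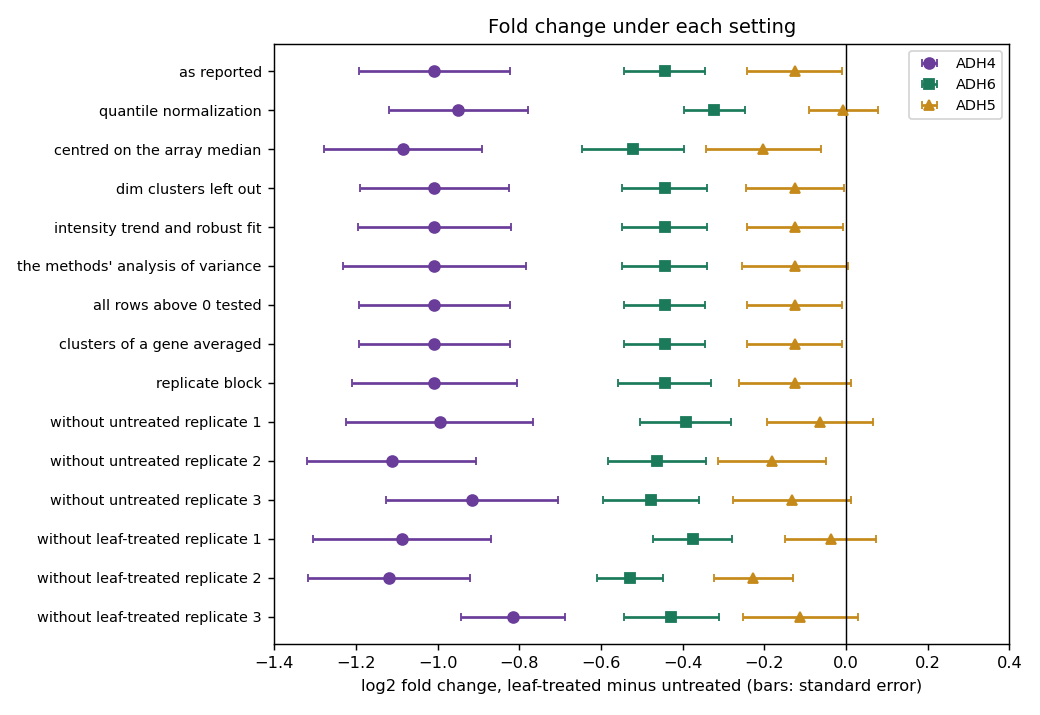
Log2 fold change, leaf-treated minus untreated (x axis), of ADH4, ADH6 and ADH5 with its standard error, as reported (top) and under 14 other settings of normalization, filter, test, pairing and arrays left out (y axis). ADH4 lies between -1.12 and -0.82 and ADH6 between -0.53 and -0.32.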

How the data were processed

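The table deposited by the authors holds log2 values of 6 arrays. GCOS, Partek and RMA are named in the submitters' processing notes, with versions and options not given in the sources used here. RMA corrects background, makes arrays comparable by quantiles and gives each transcript cluster 1 log2 value from its probes. Of 33297 rows, 4468 at 0 on every array were left out, and 19291 of the others had exactly 1 symbol in the platform annotation, updated through Entrez identifiers to GRCh38.p14 for 19260. The leaf-treated group was set against the untreated group with limma 3.58.1 (lmFit and eBayes, no covariate) in R 4.3.3 on all 19291 clusters, with Benjamini-Hochberg adjustment, and the code was tested on simulated data. Nothing says that replicates were separate cultures, so p-values measure the spread between these samples, which may be technical, and the number of arrays limits the precision. All members were named, with up to 3 genes of each list past the thresholds, the 5 most like ADH4, and ALDH2, ALDH1A1, CYP2E1, CAT and ESD. The other genes were named after their values were seen. Members and gene lists were chosen with earlier results of these data known. The counts without leaf-treated array 2 for the gene lists were also added after the data were seen. The alternatives were quantile normalization, centring, a trended and robust fit, a filter on dim clusters, plain analysis of variance, all rows, averaged clusters, the replicate block and leaving out each array.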

Additional observations from a re-analysis of the deposited data

How the results depend on the processing

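Over all genes, the 1 call at an adjusted p under 0.05 became 8 after quantile normalization, 3 after centring on the array median, 4 with dim clusters left out, 2 with an intensity trend and a robust fit, 2 with all rows tested and 2 with clusters averaged. It became 0 with the methods' analysis of variance (708 lower and 478 higher at an unadjusted p under 0.05) and 0 with any 1 array left out (2264 lower and 1598 higher by limma without leaf-treated array 2). No ADH cluster was called in any setting, and the lowest adjusted p from limma among the members other than ADH4, without leaf-treated array 2, was 0.089 for ADH6. The 162 clusters past the thresholds of the series' design became 101 with the methods' analysis of variance. They became 250 with all rows tested, out of 28829 rows in place of 19291 clusters. With 1 array left out they became 111 to 490, the highest without leaf-treated array 2. The split of 52 higher and 110 lower became 27 higher and 208 lower after centring, and 61 higher and 86 lower after quantile normalization. With the replicate number as a block 0 clusters were called by limma (955 lower and 726 higher at an unadjusted p under 0.05), and ADH6 had an adjusted p of 0.56 from limma. The deviations of same-numbered arrays from their group means correlated at -0.11, -0.18 and 0.12. With 3 arrays per group these values cannot tell whether same-numbered arrays share a culture or a day, and the labels do not say. ADH1B, ADH1C and ADH7, all at background, changed sign after centring, to -0.0458, -0.0578 and -0.0382, and with 1 array left out ADH1C ranged from -0.0691 to 0.15 and ADH7 from -0.0132 to 0.0839. The cause of these changes was not tested.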

Other observations

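Aldo-keto reductases, which reduce carbonyl compounds with NADPH, hold 4 clusters that were lower at an unadjusted p under 0.05 among 9 measured, beside 5.90% of all clusters, and 0 that were higher, beside 3.87%. Of 12 genes listed, 9 were measured. AKR1B10 passed the thresholds of the series' design, at log2 values of 6.43, 6.39 and 6.68 on leaf-treated arrays and 7.86, 7.20 and 7.83 on untreated arrays. Its log2 fold change was -1.13 ± 0.19 (SE, limma adjusted p = 0.33). AKR1C2 had a log2 fold change of -0.49 ± 0.07 (SE, limma adjusted p = 0.21), with groups that did not overlap. The median of the 9 clusters was -0.16, and without leaf-treated array 2 it was -0.18, with 3 lower (beside 11.7% of all clusters) and 1 higher (beside 1598 of 19291) at an unadjusted p under 0.05. Transcripts of AKR1C genes are near-identical, so their clusters may share targets.

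Transcription factors described at ADH promoters, and their relatives in liver, showed little difference. Of 18 listed, 15 were measured, 0 passed the thresholds of the series' design, and 1 was lower at an unadjusted p under 0.05, beside 5.90% of all clusters. This was NFIL3, a bZIP repressor, at 7.17, 7.51 and 7.42 on leaf-treated arrays and 7.73, 7.76 and 7.73 on untreated arrays, a log2 fold change of -0.37 ± 0.10 (SE, limma adjusted p = 0.43). The groups did not overlap in 2 of the 15 with leaf-treated lower (beside 7.41%) and in 1 with leaf-treated higher (beside 6.14%). Beside NFIL3 these were FOXA1, with a log2 fold change of -0.17, and FOXA3, with 0.15. CEBPA and DBP had log2 fold changes of -0.0510 and -0.0720, and HLF had 0.0582, each with groups that overlapped. The median of the 15 clusters was -0.0276. Without leaf-treated array 2 it was -0.0253, and 1 of the 15 was again lower at an unadjusted p under 0.05, beside 11.7% of all clusters. The groups then did not overlap in 3 of the 15 with leaf-treated lower (beside 19.7%) and in 1 with leaf-treated higher (beside 3284 of 19291).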
